A study of Mus musculus with 2 samples.

Results

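Intergenic Myb peaks at a middle distance from genes numbered 3981 of the 25793 peaks in the deposited list, or 15.4% (95% interval, 14.996% to 15.88%). A peak was included when its summit lay outside every annotated gene and its nearest transcript start, of any gene, was more than 3 kb and at most 50 kb away. Position alone chose the peaks, and neither their strength nor their sequence was used. The remaining peaks were 14845 within 3 kb of a start, 6635 inside a gene and more than 3 kb from any start, and 332 intergenic peaks more than 50 kb from any start.

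The peaks came from ChIP-Seq of the transcription factor Myb in Lin- bone marrow cells. These are lineage-negative cells, which remain once mature blood cells are depleted and are rich in hematopoietic stem and progenitor cells (HSPCs), and the mice were WT. The control was a precipitation of the same cell type and genotype with nonspecific rabbit IgG. There was 1 library of each kind, and the labels give both as WT with no further allele or treatment. In its mouse methods the study uses WT for Ep300 fl/fl mice without the Mx1-Cre transgene, which received poly(I:C) like the deleted mice. Whether the mice of this experiment were of that kind is not given in the sources used here. The study used this experiment to find Myb target genes in normal progenitors. Without a replicate, all values describe these libraries, and the intervals cover counting error over peaks, reads or windows but not the variation between mice. The labels give the Lin- fraction as enriched and not pure, and a peak list holds no expression values against which the cell type could be checked.

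Myb is a DNA-binding activator that blood progenitors need for self-renewal and for commitment to several lineages, and it recruits the coactivators p300 and CBP. Intergenic sequence away from promoters holds enhancers, short stretches that bind several transcription factors together and act on a promoter at a distance. The factors best known at enhancers of blood progenitors belong to the ETS, GATA, RUNX, C/EBP and TAL1 families, and each recognizes a short sequence of its own. A ChIP-Seq peak shows where Myb, or a complex that holds it, was crosslinked and does not by itself show enhancer activity.

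The sequences under 4 summits open the description. Each run below is 101 bases of the plus strand of GRCm38 (mm10, RefSeq), centered on the summit. It was chosen because the peak led the list of blood transcription factor genes by fold enrichment. Capitals mark the Myb motif, which is TAACGG or TAACTG or CAACGG or CAACTG on either strand, and in the last run, which has none, they mark the ETS and GATA motifs.
Cebpe, chr14:54705987-54706087: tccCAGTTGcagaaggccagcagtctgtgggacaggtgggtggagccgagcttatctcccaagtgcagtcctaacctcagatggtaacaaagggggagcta
Gata2, chr6:88166190-88166290: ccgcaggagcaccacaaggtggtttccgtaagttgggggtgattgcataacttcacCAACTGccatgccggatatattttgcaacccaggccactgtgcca
Ets2, chr16:95729025-95729125: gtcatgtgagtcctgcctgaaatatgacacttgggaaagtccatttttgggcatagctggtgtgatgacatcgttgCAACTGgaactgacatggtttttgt
Myb, chr10:21196670-21196770: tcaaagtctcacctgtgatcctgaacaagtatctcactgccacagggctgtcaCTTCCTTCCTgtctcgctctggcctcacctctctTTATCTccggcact

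Cebpe encodes a C/EBP factor of granulocyte maturation. Its peak lay 6.14 kb downstream of the start and had a fold enrichment of 17.4, from 89 Myb reads at the summit (exact Poisson 95% interval, 71.5 to 109.5). The Myb motif lay toward the edge of the window and overlapped a C/EBP motif, and a GATA motif began 1 base past the summit. Gata2 encodes a GATA factor of stem and progenitor cells. Its peak lay 27.7 kb upstream of the start, with a fold enrichment of 15.6 and 82 reads (65.2 to 101.8). The Myb motif CAACTG began 6 bases past the summit, and the window also held C/EBP motifs and a RUNX motif.

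Ets2, which encodes an ETS factor, had its peak 11.3 kb downstream of the start, with a fold enrichment of 10.7 and 33 reads (22.7 to 46.3). The Myb motif was the only match to the Myb or blood factor motifs in that window. The Myb gene had a peak 35.7 kb upstream of its start, in the interval toward Hbs1l that is known to hold enhancers of Myb, with a fold enrichment of 9.86 and 34 reads (23.5 to 47.5). No Myb motif was found in this window, which held overlapping ETS matches at the summit and a GATA match 37 bases from it. The read intervals of the Cebpe and Gata2 peaks overlapped each other, and so did those of the Ets2 and Myb peaks.

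The strongest peaks of all were named for genes of varied function. The next runs are the summits of the members with the highest fold enrichment that can be reported, with capitals for the Myb motif where one was present.
Dyrk1a, chr16:94698422-94698522: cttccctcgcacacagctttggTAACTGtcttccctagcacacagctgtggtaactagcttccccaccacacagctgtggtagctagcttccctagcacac
Dad1, chr14:54227606-54227706: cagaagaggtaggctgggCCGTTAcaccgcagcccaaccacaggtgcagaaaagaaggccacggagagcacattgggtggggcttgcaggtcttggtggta
In the following runs, which hold no Myb motif, capitals mark the motifs of the ETS, GATA, RUNX, TAL1 and C/EBP families.
Sfi1, chr11:3105512-3105612: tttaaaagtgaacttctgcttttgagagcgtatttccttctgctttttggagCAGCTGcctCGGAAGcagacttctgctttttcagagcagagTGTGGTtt
Ccdc9, chr7:16294965-16295065: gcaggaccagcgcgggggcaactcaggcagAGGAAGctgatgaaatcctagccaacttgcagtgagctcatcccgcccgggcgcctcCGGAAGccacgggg
Mgat4a, chr1:37562054-37562154: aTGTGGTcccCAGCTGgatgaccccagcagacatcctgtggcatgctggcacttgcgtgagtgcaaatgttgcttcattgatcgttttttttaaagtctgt
Slc22a27, chr19:8020129-8020229: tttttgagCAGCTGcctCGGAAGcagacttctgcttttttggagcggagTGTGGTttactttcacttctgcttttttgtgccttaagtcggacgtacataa
Il12a, chr3:68677128-68677228: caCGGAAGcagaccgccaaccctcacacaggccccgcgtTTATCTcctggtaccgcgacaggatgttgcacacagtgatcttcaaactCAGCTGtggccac
Cdk17, chr10:93124361-93124461: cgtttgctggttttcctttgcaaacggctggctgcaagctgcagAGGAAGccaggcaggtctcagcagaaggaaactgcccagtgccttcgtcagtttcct

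The peak named for Dyrk1a, a protein kinase gene whose start was 29.6 kb away, lay 15.4 kb from the noncoding gene Gm41504. It had a fold enrichment of 25.5 and 103 reads (84.1 to 124.9), and its window was a short tandem repeat with 3 RUNX and 2 TAL1 motifs. The peak named for Dad1 lay 26.3 kb from that start and 7.14 kb from Trac, the constant gene of the T cell receptor α chain, in an interval known to hold the enhancer of that receptor gene. It had a fold enrichment of 20.6 and 109 reads (89.5 to 131.5), the highest read number among the 3981 peaks. Whether the summit falls in the known enhancer was not examined.

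Of the other named peaks, Il12a, which encodes a subunit of interleukin 12, had 19.8-fold enrichment 13.5 kb upstream of its start. Mgat4a, a glycosyltransferase gene, had 20.6-fold enrichment 21.1 kb upstream. Sfi1, Ccdc9, Slc22a27 and Cdk17 had 19.6- to 20.9-fold enrichment with 63 to 75 reads. The Slc22a27 peak (20.1-fold) had 63 reads and an IgG background of 1.46, the lowest of the list, which 12.4% of all peaks shared. The Dad1 peak (20.6-fold) had 109 reads and a background of 3.12. Backgrounds were calculated back from fold enrichment and the scaled reads. The reads given are before scaling by 0.769, so their plain ratio to the background is not the fold enrichment. Of the ETS, GATA, RUNX, TAL1 and C/EBP families, the Ccdc9 and Cdk17 windows held ETS matches alone. The peaks named for Sfi1 and Slc22a27, on chromosomes 11 and 19, shared an unbroken run of 34 bases that holds the TAL1 and ETS motifs, and the genome held this run 2 times. The central 51 bases of each printed window occurred 1 time in the genome.

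The strength of the 3981 peaks was close to that of the whole list, whose median fold enrichment was 4.51. Fold enrichment, which relates the scaled Myb reads at a summit to the IgG background there, ranged from 1.82 to 25.7 around a median of 4.60 (4.51 to 4.69), with quartiles of 3.74 and 6.04. Inside genes and more than 3 kb from a start the median was 4.47 (4.46 to 4.48), and within 3 kb of a start it was 4.54 (4.51 to 4.60). A fold enrichment of at least 10 was reached by 196 members, or 4.92% (4.27% to 5.64%), beside 4.47% of all peaks. A −log10 q-value of 5 or more was found for 44.6%, which was 4.96 percentage points above the peaks inside genes (Newcombe 95% interval, 3.02 to 6.90) and 0.262 points above those within 3 kb of a start (−1.47 to 2.00).

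Read support was thin for most of them. The median summit had 18 Myb reads, recovered from the deposited values, and the central range between the quartiles went from 14 to 24. The lowest value was 8 and the highest 109, and 56.9% of the summits had under 20 reads. The IgG background at member summits was low too, with a median of 2. It was at its lowest value, 1.46, for 14.2% of members (13.1% to 15.3%). This share was 16.0% for peaks inside genes and more than 3 kb from a start, and 9.997% within 3 kb of a start. The intervals of read numbers cover the Myb reads and not this background. The q-value was above 0.05 for 300 members, or 7.54% (6.73% to 8.40%). The median width was 534 bp. Peaks wider than 2 kb were 1.61% of the members, and the difference from peaks within 3 kb of a start was −3.22 points (−3.72 to −2.67).

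Density fell with distance from the start. The genome holds 884.3 Mb of sequence in which a summit would have met the rule, which is 33.4% of all sequenced bases and is called qualifying sequence here. Members had a density of 4.50 peaks per Mb (exact Poisson 95% interval, 4.36 to 4.64), or 0.462 times the genome-wide density. This ratio was 0.876 when protein-coding genes alone defined the rule. By distance to the nearest start of any gene, the density was 7.91 per Mb at 3 to 5 kb (7.32 to 8.53) and 6.25 at 5 to 10 kb (5.89 to 6.63). It was 4.73 at 10 to 20 kb (4.46 to 5.004) and 2.72 at 20 to 50 kb (2.55 to 2.89). No intervals of neighboring distances overlapped. Sequence inside genes and more than 3 kb from a start had 7.07 peaks per Mb, and intergenic sequence beyond 50 kb had 0.800.

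**Figure D1:**
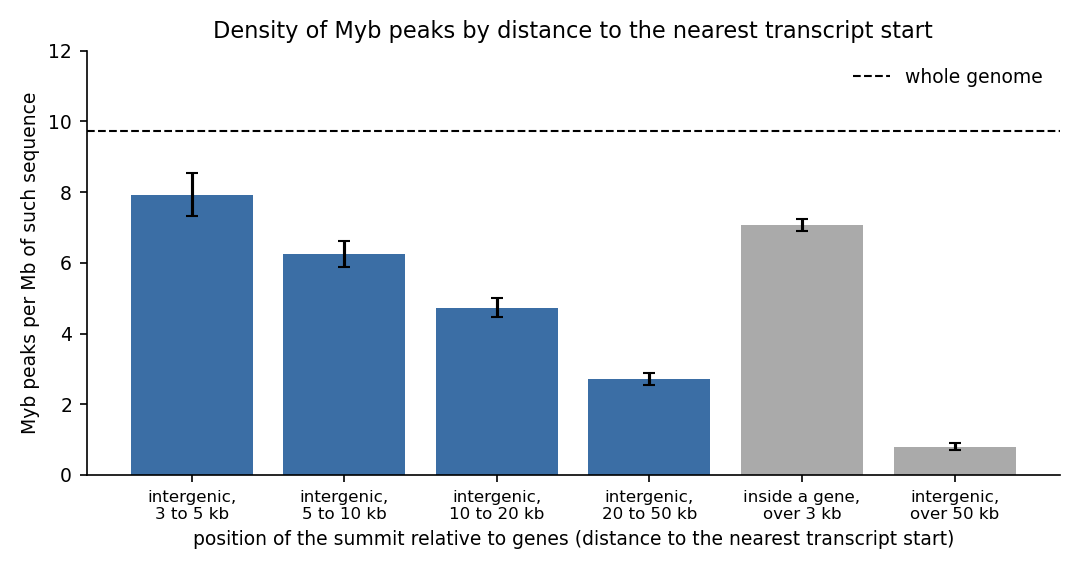
Myb peaks per Mb of sequence at each distance from the nearest transcript start, for the intergenic peaks of 3 to 50 kb in blue and for the 2 most similar classes in gray, with exact Poisson 95% intervals as bars and the whole genome as a dashed line. The density declines from 7.91 per Mb at 3 to 5 kb to 2.72 at 20 to 50 kb and 0.800 beyond 50 kb.

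Strength did not follow this decline. The median fold enrichment was 4.47 (4.31 to 4.61) at 3 to 5 kb and 4.69 (4.55 to 4.78) at 20 to 50 kb. The limits of the rule cut through a continuous range. There were 71 members from 3 to 3.2 kb with a median of 4.47, and 70 other intergenic peaks from 2.8 to 3 kb with a median of 4.76. At the far limit, 73 members from 45 to 50 kb had a median of 4.48 and 67 peaks from 50 to 55 kb had a median of 4.47.

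Each peak was named by the nearest protein-coding start. The median distance to it was 18.96 kb, and for 825 members (20.7%) it was more than 50 kb, because a noncoding start was closer. For 2026 members (50.9%) the protein-coding gene was also the nearest gene of any kind. Members lay upstream of that start in 63.4% of cases (61.9% to 64.9%), and 58.6% of qualifying bases were upstream. A nearest gene is a name for a position and was not tested as a target.

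Members were concentrated beside genes that had Myb at their promoter as well. The nearest protein-coding gene of 2637 members, or 66.2% (64.7% to 67.7%), had a peak within 3 kb of a start, although such genes were nearest to only 28.6% of qualifying sequence and made up 39.9% of protein-coding genes. This corresponds to 10.4 peaks per Mb (10.04 to 10.84) beside genes with a promoter peak and 2.13 per Mb (2.02 to 2.24) beside the others. Among peaks inside genes and more than 3 kb from a start, the share was 76.6%, and members differed from them by −10.3 points (−12.1 to −8.54). Members of at least 10-fold enrichment had a share of 68.4% (61.4% to 74.8%), and the rest 66.1% (64.6% to 67.6%).

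The recognition sequence of Myb was enriched under the summits. It was found in the 101-base window of 770 members, or 19.3% (18.1% to 20.6%), beside 16.7% of all peaks in the list. Windows of the same size centered 500 bp to either side of these summits held it in 10.6% (9.91% to 11.3%), and windows tiled over all qualifying sequence in 9.97%. The ratio of summit to flank was 1.83. Inside genes and more than 3 kb from a start the summit share was 19.3% as well, and the difference was 0.0502 points (−1.49 to 1.61). Within 3 kb of a start the share was 4.68 points lower (3.35 to 6.05). Over the 4 ranges of distance, the share of members with the motif was 18.5%, 17.6%, 20.3% and 20.7%, with overlapping intervals.

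The 4 forms of the motif did not contribute equally. CAACTG was the most frequent at summits, in 9.52% of members and 4.79% of flanks. The rarer forms with GG at the end had the higher ratios, with TAACGG in 1.71% of summits and 0.540% of flanks, a ratio of 3.16, and CAACGG in 2.29% and 0.816%, a ratio of 2.80. TAACTG had the lowest ratio, 1.53. Most summits with a match held 1, whereas 87 held 2 and 6 held 3 or more. Summits without any match were 80.7% of the members.

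Motifs of other blood factors peaked at the same summits. The ETS motif (AGGAAG or CGGAAG) was the most frequent, in 23.2% of summit windows (21.9% to 24.6%) and 15.1% of flanks. The TAL1 motif (CAGATG or CAGCTG, a form of the E-box) was in 18.8% and 11.6%, and the GATA motif (AGATAA or TGATAA) in 17.8% and 9.93%. The RUNX motif (TGTGGT) was in 13.5% and 8.29%. The C/EBP motif (TTGCNNAA) was in 7.89% and 3.98%, the highest ratio of summit to flank among these families at 1.98. MEIS, the motif of a HOX cofactor (TGACAG), was in 9.57% and 6.37%. Against windows tiled over qualifying sequence the order differed. The ratios were then 1.97 for ETS, 1.95 for RUNX, 1.73 for TAL1, 1.64 for C/EBP and 1.33 for GATA, which was in 13.4% of those windows. Matches were sought on both strands and kept when they overlapped a match of another family.

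**Figure D2:**
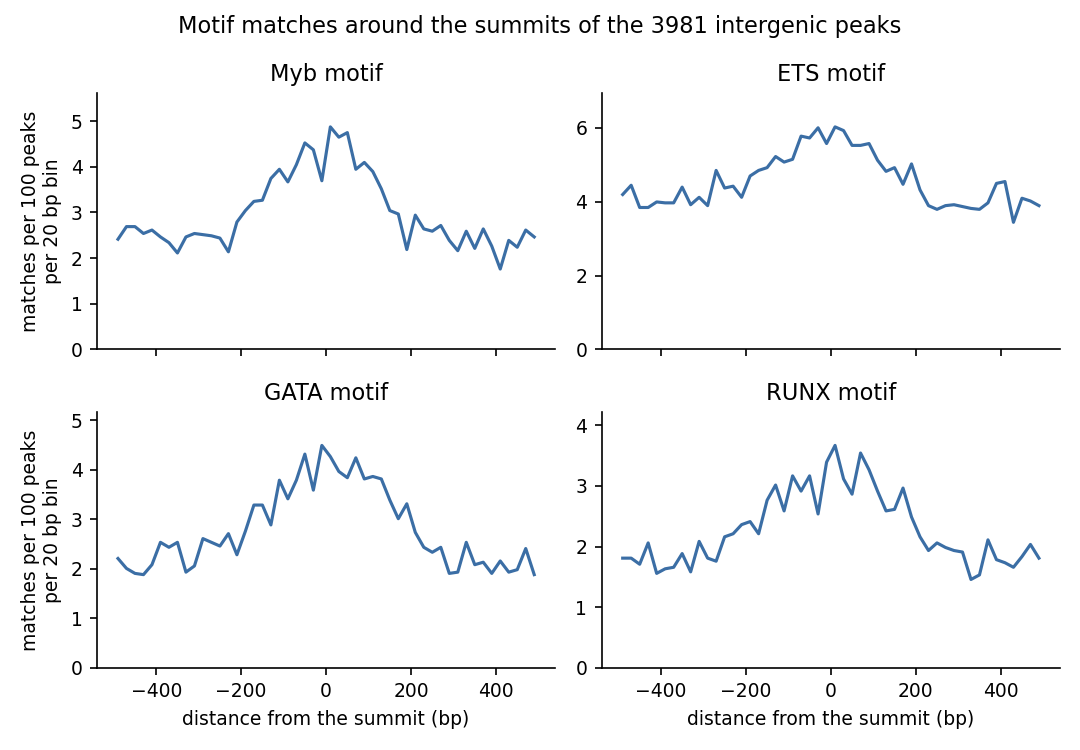
Matches of the Myb, ETS, GATA and RUNX motifs per 100 members in bins of 20 bp by distance from the summit in bp. In the bins centered within 40 bp of the summit the mean was 4.40 for Myb, 5.88 for ETS, 4.08 for GATA and 3.18 for RUNX, and in the bins at 400 bp or more it was 2.44, 4.03, 2.05 and 1.80.

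Sequence composition differed between summit windows and qualifying sequence. Summit windows had a mean GC content of 46.9%, and qualifying sequence 41.2%. The motif of NFY (CCAAT) was less frequent at summits (11.1%) than in flanks (12.8%) or in qualifying sequence (17.3%), and that of the STAT family (TTCNNNGAA) was at 3.04% and 2.96% of summits and flanks. The GC-rich SP/KLF motif (GGGCGG) was in 3.24% of summits, 2.16% of flanks and 0.747% of qualifying windows. The part of composition in the motif shares was not tested. Only 14.1% of summits (13.05% to 15.24%) lay in sequence masked as repeats, which makes up 44.5% of qualifying bases, and the authors had removed reads of low mapping quality.

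The other families were compared with the peaks inside genes in the same way. ETS was 2.62 points more frequent in members (1.00 to 4.27), TAL1 1.69 points (0.185 to 3.22), SP/KLF 1.64 points (3.24% and 1.60%, 1.04 to 2.30) and AP-1 (TGANTCA) 0.844 points (0.115 to 1.61). GATA differed by −1.61 points (−3.12 to −0.0775). The motif of the insulator protein CTCF (CC, AGG and GG at fixed gaps) was at 2.01% of member summits and 1.03% of flanks, 0.517 points more than inside genes (0.0109 to 1.07). For C/EBP, RUNX, MEIS, NFY, STAT, IRF (GAAA followed by a second GAAA after a gap, 1.93% of member summits) and NF-kB (GGGA and TTTCC with 1 base between them, 0.201%) the interval of the difference included 0. These 14 families gave as many comparisons, with intervals that were not adjusted for their number.

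The share of summits with a Myb motif rose with peak strength. Members were divided by fold enrichment at the quartiles into 4 groups, from group 1 (1.82 to 3.74) to group 4 (6.04 to 25.7). The Myb motif was found in 12.7% of summits in group 1 (10.7% to 14.9%), 16.6% in group 2, 19.7% in group 3 and 28.3% in group 4 (25.5% to 31.2%). Flanks stayed between 10.04% and 11.2%. The ratio of summit to flank thus went from 1.26 to 2.79. GATA went from 15.01% (12.8% to 17.4%) to 23.0% (20.4% to 25.7%), C/EBP from 5.88% (4.50% to 7.54%) to 10.04% (8.24% to 12.1%), and TAL1 from 16.0% (13.8% to 18.47%) to 20.98% (18.49% to 23.6%). The intervals of the first and last groups overlapped for RUNX (13.2% and 15.6%) and for ETS (22.3% and 23.8%).

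**Figure D3:**
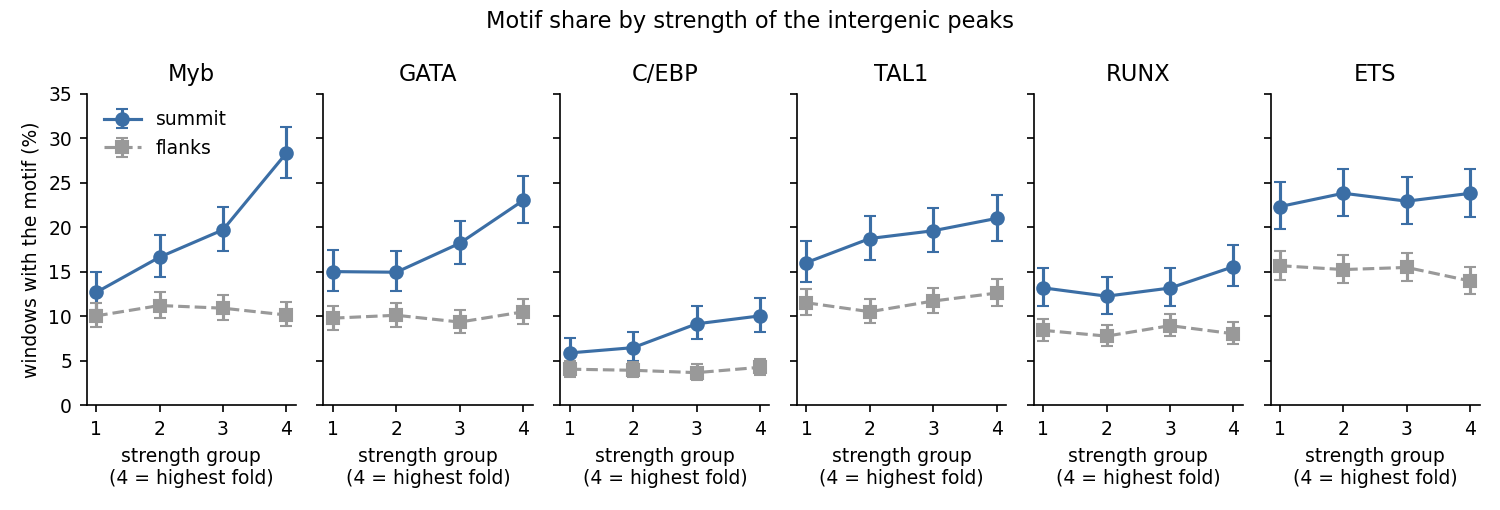
Share of summit windows (blue) and flank windows (gray) with the Myb, GATA, C/EBP, TAL1, RUNX and ETS motifs in the 4 groups of members by fold enrichment, in percent with exact binomial 95% intervals. Summit shares climb for Myb from 12.7% to 28.3% for GATA from 15.01% to 23.0% and for TAL1 from 16.0% to 20.98%, while ETS stays between 22.3% and 23.8%.

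Members with a Myb motif had a median fold enrichment of 5.09 (4.95 to 5.34), and those without 4.48 (4.46 to 4.53). At least 10-fold enrichment was reached by 8.70% of the former (6.81% to 10.9%) and 4.02% of the latter (3.36% to 4.76%). A motif of at least 1 of the ETS, GATA, RUNX, TAL1 and C/EBP families was in most summit windows. None of the 5 was found in 1592 members (39.99%). The flank share with at least 1 is not given here, and single families were in 3.98% (C/EBP) to 15.1% (ETS) of flanks. Windows with motifs of 3 or more of these families numbered 112, or 2.81% (2.32% to 3.38%), and 0.641% (0.477% to 0.841%) of the flanks were of this kind. Neither a Myb motif nor one of these 5 families was found in 1307 members (32.8%), and the matching flank share is not given here.

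Among summits with a Myb motif, RUNX motifs were 4.63 points more frequent (1.85 to 7.67) and C/EBP motifs 2.62 points (0.470 to 5.09) than among summits without one. For GATA the difference was 2.26 points (−0.710 to 5.48), for ETS 1.17 (−2.08 to 4.63) and for TAL1 −0.493 (−3.43 to 2.69). The letters of the Myb and C/EBP motifs can overlap, as in the Cebpe window.

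Many members stood close to others. Another member lay within 10 kb of 1769 members, or 44.4% (42.9% to 46.0%), and these formed 688 runs. The share for other classes of peaks is not given here, so closeness is not shown to be particular to members. Each deposited call counted as 1 member, also where calls were close neighbors, as in a run of 9 members over 9.205 kb. Among members whose −log10 q reached 5, the share near another such member was 25.5%. Runs of 3 or more numbered 216 with 825 members, and runs of 5 or more numbered 38. The 3981 members were nearest to 2339 protein-coding genes, which is 10.7% of the 21938 annotated. Of these genes, 1481 (63.3%) had 1 member, 501 had 2, 174 had 3 and 183 had 4 or more.

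The genes with the most members had 9 to 14 each. Zfp36l2, which encodes an RNA-binding protein of mRNA decay, had 14, all downstream of its start at distances from 6.16 to 126 kb. The strongest, at 26.3 kb, had 16.9-fold enrichment with 72 reads and a Myb motif, and the others ranged from 2.73 to 11.4. Zfp217, a zinc finger gene, had 13 members, all upstream, of which the one 7.085 kb from the start had 14.95-fold enrichment and the others 2.89 to 6.38.

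Ccr1, a chemokine receptor gene of myeloid cells, had 11 members from 10.6 to 43.2 kb downstream. They were densely set, with only 0.0409 Mb of qualifying sequence nearest to this gene, and had 3.41- to 9.86-fold enrichment. None of them held a Myb motif, and Ccr1 had no promoter peak. Klf6, a Krüppel-like factor gene, also had 11, with the strongest (8.53-fold) 6.10 kb downstream. Haao, an enzyme of tryptophan breakdown, had 10, all upstream and at least 55.6 kb from the start. They lay on chromosome 17 from 83903361 to 83991177, beside the Zfp36l2 members at 84061661 to 84183959, and Haao had no promoter peak.

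Atf7ip, which encodes a chromatin regulator, had 9 members in a run of 9.205 kb, from 32.5 to 41.7 kb upstream. The central peak had 12.97-fold enrichment with 55 reads, the others 3.34 to 5.51, and none of the 9 held a Myb motif. Klf3, another Krüppel-like factor gene, had 9 members of 4.10- to 6.79-fold enrichment on both sides of the start. Tle3, a corepressor gene, had 9 of 3.52 to 6.49. Max, the gene of the partner protein of Myc, had 9 of 2.201 to 5.507, all of them upstream by at least 63.4 kb. The q-value was above 0.05 for the Max members of 2.201- and 2.76-fold enrichment. The same held for the weakest Klf6 member (2.35-fold) and a Zfp217 member of 2.90-fold, and all of these count toward the numbers given. Of these 9 genes, 7 had a promoter peak, beside 61.4% of all genes with a member.

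**Figure D4:**
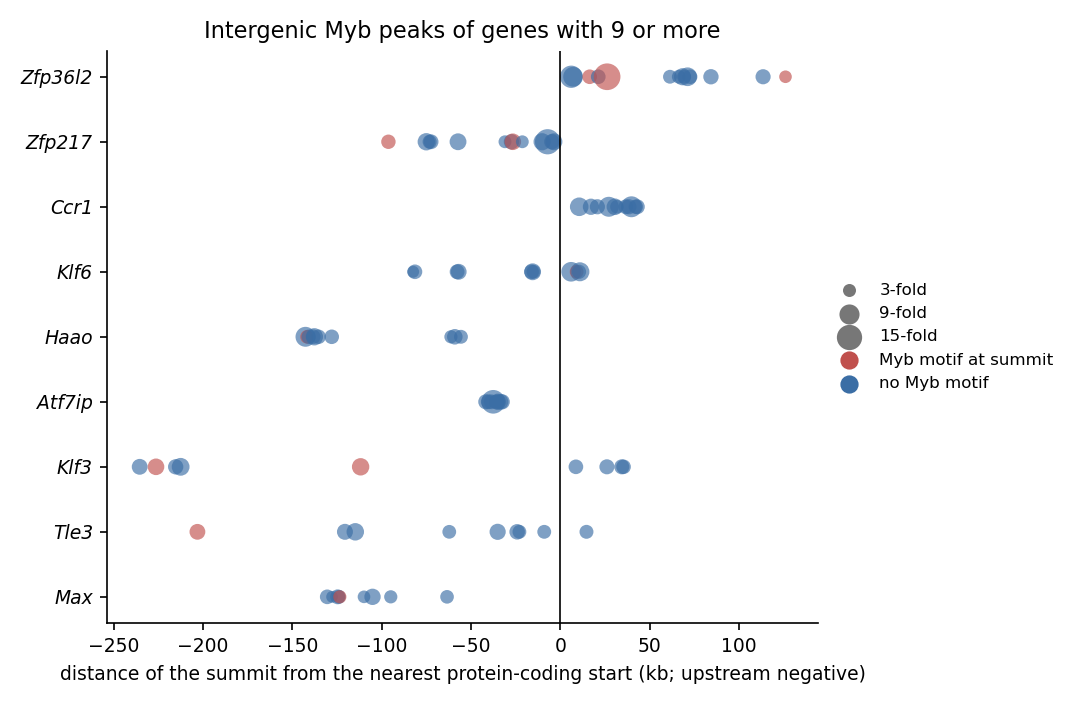
Positions of the members of 9 genes that each have 9 or more, in kb from the nearest protein-coding start (negative is upstream), with dot area growing with fold enrichment and red for summits with a Myb motif. The members of Zfp36l2 and Ccr1 all lie downstream, those of Zfp217, Haao, Atf7ip and Max all upstream.

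Gene lists of blood functions were compared with all protein-coding genes by the number of genes with a member and by the peaks per Mb of qualifying sequence nearest to them. The lists were chosen with results of these data known, so the counts describe them and are no independent evidence. Of 50 hematopoietic transcription factor genes, 25 (50%, 35.5% to 64.5%) had at least 1 member, 56 members in all. Over all protein-coding genes this share was 10.7%, and over those with a promoter peak 16.4%. The 50 listed genes had 5.54 Mb of qualifying sequence nearest to them, beside 884.3 Mb for all 21938 genes. The 8758 genes with a promoter peak had 252.7 Mb. The shares of genes in this and the later lists were not adjusted for the amount of such sequence. The density of the list was 10.1 per Mb (7.63 to 13.1), beside 4.50 for all genes. It was 10.4 for all genes with a promoter peak, which 44 of the 50 had. The members of this list had a median fold enrichment of 5.36, and 13 of the 56 held a Myb motif, beside 19.3% of all members.

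After Cebpe, Gata2, Ets2 and Myb, the listed transcription factor genes with a member were Gfi1b, Zeb2, Runx3, Lmo2, Klf2, Id2, Meis1, Bach2, Runx1, Fli1, Ikzf2, Tal1, Hhex, Tcf7, Cebpa, Nfe2, Lef1, Bcl11a, Ets1, Myc and Gata1. This order is by fold enrichment and differs from that by reads or q-value. The strongest Gfi1b peak (8.63-fold) had 66 reads and a −log10 q-value of 28.3, beside 18.99 for Ets2 and 18.28 for Myb. Its IgG background was higher than at those peaks. Lmo2, a bridging protein of the TAL1 and GATA complex, had 8 members upstream of its start, from 11.0 to 64.0 kb and from 3.59- to 8.33-fold. The peaks of Ets1, Myc and Gata1 were weak, with q-values above 0.05. Several of these genes had their strongest peak more than 50 kb from the start, where a noncoding start was closer. These were Hhex (51.9 kb), Zeb2 (54.6), Lmo2 (64.0), Bach2 (68.0), Lef1 (96.2) and Bcl11a (101). The distance was 134 kb for Meis1, 176 for Ikzf2, 203 for Runx1, 287 for Ets1 and 835 for Myc. Another peak named for Zeb2 lay 1254 kb away. A name at such distances says little of the gene.

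Receptor genes held some of the stronger peaks. Of 24 cytokine and growth factor receptor genes, 9 (37.5%, 18.8% to 59.4%) had members, beside 10.7% of all protein-coding genes. They had 29 in all, at 21.2 per Mb (14.2 to 30.4). Cxcr4, the chemokine receptor that keeps stem cells in the marrow, had 6, led by a peak 23.2 kb upstream with 15.7-fold enrichment and 59 reads (44.9 to 76.1). The weakest of the 6, at 3.22-fold, had a q-value above 0.05. Ifngr1, a chain of the interferon γ receptor, had 7, led by one 6.93 kb upstream with 15.4-fold enrichment and a Myb motif. Ifnar1, a chain of the type I interferon receptor, had one of 15.2-fold enrichment 17.6 kb downstream. Tgfbr2, a TGF-β receptor gene, had one of 12.6-fold enrichment 191 kb upstream. Kit, Il6st, Cd34, Csf2ra and Il7r had members of at most 7.55-fold enrichment. The strongest Kit peak lay 193 kb upstream of its start.

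Of 18 myeloid granule and effector genes, 7 (38.9%, 17.3% to 64.3%) had members, beside 10.7% of all protein-coding genes. They had 10 in all, at 30.8 per Mb (14.8 to 56.6). Mpo, the gene of myeloperoxidase, had a peak of 11.6-fold enrichment 3.36 kb upstream, with 41 reads (29.4 to 55.6). Ctsg, which encodes cathepsin G, had 3, led by one of 9.86-fold enrichment 3.17 kb upstream. Fcnb had one of 9.68-fold enrichment and Itgam, an integrin gene, one of 4.699. Ly6c2, Ltf and Mmp8 had 3.15- to 3.84-fold enrichment, and the q-value at Mmp8 was above 0.05. This list had only 0.325 Mb of qualifying sequence. The strongest peaks of Mpo, Ctsg, Itgam, Ly6c2 and Mmp8 lay 3.17 to 4.83 kb from the start, those of Ltf and Fcnb 7.59 and 20.2 kb. All members together had 7.91 per Mb at 3 to 5 kb, and the lists were not matched for distance. Of the 18 survival and cell cycle genes, 8 (44.4%, 21.5% to 69.2%) had members, beside 10.7% of all protein-coding genes. They had 15 in all, at 22.9 per Mb (12.8 to 37.8). Promoter peaks were at 17 of these 18 genes, and all genes with a promoter peak had 10.4 members per Mb. Of the 15 members, 1 held a Myb motif, beside 19.3% of all members. The receptor and myeloid lists had 8 of 29 and 4 of 10. Promoter peaks were at 16 of the 24 receptor genes and 6 of the 18 myeloid genes. The strongest were at Bcl2l11 (16.2-fold, 39.1 kb from the start), Bcl2 (10.3-fold, 195 kb), Ccnd2 (9.28-fold, 114 kb) and Cdk6 (8.53-fold, 189 kb). Ccne1, Cdkn1b, E2f1 and Mcl1 followed. Bcl2l11 encodes the proapoptotic protein Bim and Bcl2 an inhibitor of apoptosis.

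Erythroid, megakaryocyte and lymphoid genes had little qualifying sequence, 0.286 and 0.246 Mb. Of 18 erythroid and megakaryocyte genes, 4 had 1 each (14.0 per Mb, 3.81 to 35.8), among them Vwf (7.73-fold), Hbb-bt (7.59-fold) and Gp9 (4.44-fold), and none of these 3 held a Myb motif. Of 18 lymphoid genes, 3 had 1 each (12.2 per Mb, 2.51 to 35.6), namely Dntt (6.24-fold), Ccr7 (3.88-fold) and Igll1 (3.13-fold, with a q-value above 0.05). These densities were above that of all genes, but their intervals included it. The shares of genes with a member were 22.2% (6.41% to 47.6%) and 16.7% (3.58% to 41.4%), with intervals that included the 10.7% of all protein-coding genes.

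Genes of other organs served as a comparison. Among 18 neuronal genes, 1 had a member, a peak of 3.71-fold enrichment named for Neurod6, at 0.451 per Mb (0.0114 to 2.51). Among 18 liver genes, Cyp7a1 had a peak of 2.80-fold enrichment with a q-value above 0.05, at 1.42 per Mb (0.0359 to 7.90). None of the 18 skeletal muscle genes had a member, and the upper limit of the density was 10.7 per Mb. The share of genes with a member was 5.56% (0.141% to 27.3%) in the neuronal and in the liver list. For muscle its upper limit was 18.5%. These intervals included the share over all protein-coding genes, 10.7%. Promoter peaks were present at 2, 1 and 1 of the genes of these lists. Beside all protein-coding genes without a promoter peak the density was 2.13 per Mb, which the density intervals of these lists included.

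**Figure D5:**
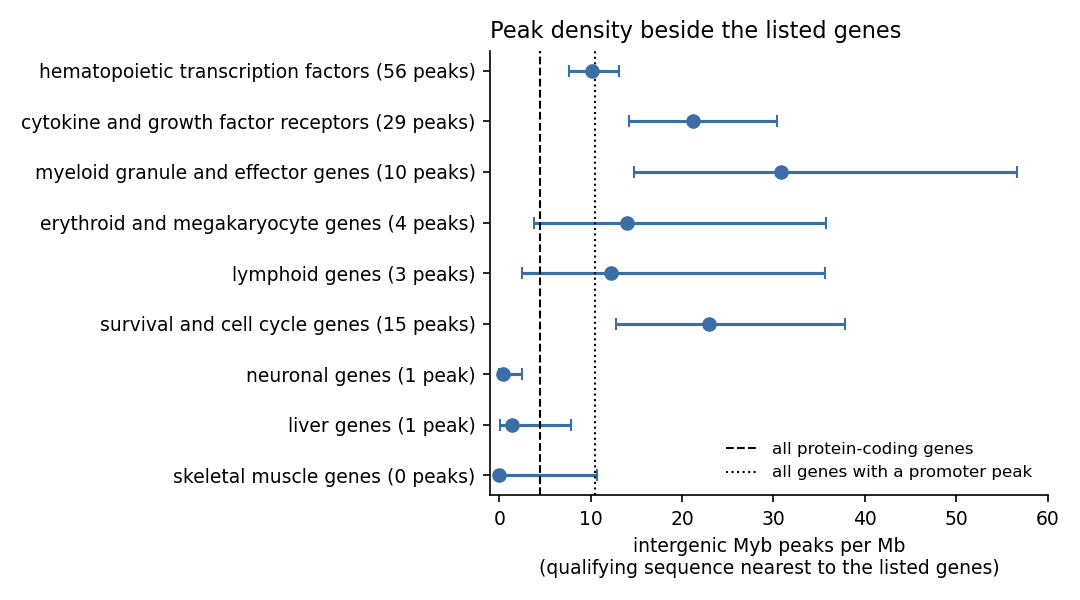
Members per Mb of qualifying sequence nearest to the genes of each list, with exact Poisson 95% intervals, beside all protein-coding genes (dashed) and all genes with a promoter peak (dotted). Receptor, myeloid and survival lists lie above both lines, and the transcription factor list lies at 10.1 near the dotted line. The erythroid and megakaryocyte list at 14.0 and the lymphoid list at 12.2 have intervals that cross both lines. The neuronal list lies below both, and genes without a promoter peak, at 2.13 per Mb, are not drawn. The lists were not matched for distance from the start.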

How the data were processed

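The data were the peak list of 1 Myb ChIP-Seq library of WT Lin- bone marrow cells, with 1 IgG library as control. Per the labels and methods, the authors used Cutadapt 1.15 for trimming and BWA 0.7.13 for alignment to mm10. They removed duplicates with Picard and reads of low mapping quality or in the blacklist. Narrow peaks were called with MACS2 (2.1.1.20160309) against IgG. Calls shared by pseudo-replicates, which are subsets of 1 library, were kept. The methods give a q-value cut of 0.05 for the pseudo-replicate calls, but 7.24% of the deposited peaks had a q-value above 0.05. The reason was not examined. The deposited fold enrichment is a ratio of the scaled Myb pileup plus 1 to the IgG background plus 1, and the deposited p-values and q-values are −log10 values. Total read depth is not given in these sources.

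Summits were placed on GENCODE vM21 genes and transcript starts and on the RefSeq GRCm38 sequence, and qualifying bases were counted one by one. Reads per summit were recovered from fold enrichment and p-value with a pileup scale of 0.769, which gave whole reads within 0.001 on the −log10 p scale in 100.0% of rows and more than 1 possible number in 0.0892%. PCR copies and neighboring peaks are not independent, so intervals cover counting error only. Shares have exact Clopper-Pearson 95% intervals, differences of shares Newcombe intervals, and medians order-statistic intervals. No p-value was computed, because peaks are not replicates of a condition. Scripts ran in Python 3.11.15 with SciPy 1.17.1 and were tested on simulated data.

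The members, lists and motifs were chosen with earlier results of these data known. Named are the 10 members with the highest fold enrichment, the 10 genes with the most members, and of each of 9 gene lists the genes with a member, with values for the strongest 4. The reads of peaks and values of a few further members of named genes were added to describe them. Among these, 2 of the strongest members, 1 of the genes with the most and 1 listed gene are not reported here. The alternatives concerned the q-value, the summit or midpoint, the annotation, the limits of distance, windows, forms of the motif and the gap between members.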

Additional observations from a re-analysis of the deposited data

How the results depend on the processing

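No paired analysis was possible because each group had 1 library. When −log10 q had to reach 5, 1775 members remained. They were 15.95% of the remaining peaks, with 0.478 times the genome-wide density, a Myb motif ratio of summit to flank of 2.35 and a median fold enrichment of 6.34. Among these, 25.5% were within 10 kb of another and 46.8% had a promoter peak of the same threshold at the nearest gene. When −log10 q had to reach 2, the median was 4.95 and these shares were 40.2% and 63.0%. Fewer peaks remained at each threshold, and the cause of the lower shares was not tested. The share of qualifying sequence beside genes with such promoter peaks is not given here. With protein-coding genes alone, members were 16.5% of peaks at 0.876 times the genome-wide density, since the sequence that met the rule was redrawn. The motif ratio was 1.63 with 100 bp on each side, 1.39 for AACNG and 1.56 for TAACNG, and the cause was not tested. A gap of 5 or 20 kb gave 35.8% or 53.9% of members near another, and a promoter window of 1 kb gave 60.7% with a promoter peak. The difference in Myb motif share from peaks inside genes, whose interval included 0, ran from −0.879 points with 100 bp on each side to 1.08 points at the stricter q-value. Of the 46 alternatives run over 10 results, 28 kept the value within its own interval or, for counts, within 1.5 times. The median summit had 18 reads, fewer than the 33 of the Ets2 peak, whose counting interval ran from 22.7 to 46.3.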

Other observations

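The density of members differed between chromosomes. Over the autosomes it ranged from 3.25 per Mb of qualifying sequence on chromosome 14 to 11.0 on chromosome 19, with a median of 4.93. The X chromosome had 72 members, at 1.02 per Mb (0.798 to 1.28), and all autosomes together had 5.21 (5.04 to 5.37). Peaks inside genes showed 1.79 per Mb on X (1.41 to 2.24) and 7.36 on the autosomes, and peaks within 3 kb of a start 12.9 (11.3 to 14.7) and 38.1.

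Among the runs of 7 members, the one with the strongest peak was nearest to Dennd4a, which encodes an activator of Rab proteins, over 17.1 kb upstream of the start with fold enrichments from 3.67 to 18.6. A run of 7 beside Ugcg, the gene of glucosylceramide synthase, spanned 22.6 kb with 3.23- to 9.62-fold enrichment, and a run of 6 beside Galnt6 and Slc4a8 spanned 14.2 kb and reached 16.8-fold. These runs were chosen after their values were seen.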
